A study of Sus scrofa with 2 samples.

Results

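The genes described here are 6 genes of the principal cell, the cell of the collecting duct that takes up water and sodium: AQP2 (ENSSSCG00000021193), AQP3 (ENSSSCG00000040513), AVPR2 (ENSSSCG00000012789), SCNN1G (ENSSSCG00000007836), SCNN1B (ENSSSCG00000028923) and FXYD4 (ENSSSCG00000044108). They were picked by symbol, each symbol stood on 1 row, and they are 6 of the 31908 genes in the files. The tissue was pig renal cortex, measured by single-nucleus RNA sequencing in 2 libraries. The unperfused library came from cortex collected before perfusion, and the perfused library from cortex collected 120 min after the start of normothermic machine perfusion at 100 mmHg and 37 °C. The tissue came from slaughterhouse pigs, the kidneys were flushed with buffered saline and heparin, and perfusion began after about 2 h at 4 °C. The sources used here do not say whether both pieces came from 1 animal. Each condition thus has 1 library, no replicate error exists, and every difference below compares these libraries and not the conditions.

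Water leaves the collecting duct through AQP2, a channel in the membrane facing the urine, and then through AQP3 in the membrane facing the blood. The hormone vasopressin binds the V2 receptor, encoded by AVPR2, which raises cAMP and brings AQP2 to the cell surface. Sodium enters through the epithelial sodium channel (ENaC), built of an alpha subunit (SCNN1A), a beta subunit (SCNN1B) and a gamma subunit (SCNN1G). It is pumped out by the sodium pump, whose kinetics are tuned by small FXYD proteins, among them FXYD4, which is known from the collecting duct. In the connecting tubule, the segment just upstream, ENaC is also present, and AQP2 is found in its later part.

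The unperfused library held 34415254 unique molecular identifiers (UMIs, each counted as 1 RNA molecule) in 7179 barcodes and the perfused library 35525592 in 6205. After filtering, 6389 and 5421 nuclei were kept, with medians of 3755 and 4383 UMIs. Of the barcodes, 14 were present in both libraries, 8 of them among the kept nuclei. The nuclei formed 20 clusters, of which 15 were named from marker genes that included none of the 6 genes, and the 6 genes were also kept out of the clustering. Principal cell-like nuclei were 1 cluster with GATA3 at 293 CPM (UMIs of the gene per 1000000 UMIs of the class) against 30.4 in all other nuclei, ELF5 at 83.5 against 2.93 and BMPR1B at 1203 against 108, and 6 of the 12 marker genes counted toward the name. The list's PDE10A, MCTP1, KCNE1 and FGF12 were lower there than elsewhere. Connecting tubule-like nuclei were 1 cluster with SLC8A1 at 15296 CPM against 319, CALB1 at 312 against 10.7 and TRPV5 at 28.8 against 1.18. TRPV5 had a UMI in 9.05% of these nuclei, and of the other markers on that list SCN2A was at 0 and KITLG (186 against 211 CPM) and RALYL (2.47 against 7.60 CPM) were lower than elsewhere. In 3 groups of equal size by SLC8A1, described further on, the highest unperfused group held 31048 of the 33063 SLC8A1 UMIs. The lowest groups were at 394 (unperfused) and 446 CPM (perfused), against 318 and 138 CPM in principal cell-like nuclei. Levels given for connecting tubule-like nuclei cover all 3 groups.

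There were 176 principal cell-like nuclei in the unperfused library, 2.75% of its nuclei (exact binomial 95% interval 2.37 to 3.19), and 150 in the perfused library, 2.77% (2.35 to 3.24). Connecting tubule-like nuclei numbered 517, or 8.09% (7.43 to 8.79), and 223, or 4.11% (3.60 to 4.68). The share of principal cell-like nuclei was thus nearly equal, while that of connecting tubule-like nuclei was lower in the perfused library. The perfused nuclei were deeper in both classes, with a median of 5385 against 3757 UMIs in principal cell-like and 5892 against 4000 in connecting tubule-like nuclei.

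All 6 genes had their highest level in principal cell-like nuclei with both libraries pooled, although neither the clusters nor the names rested on them. AQP2 stood at 990 CPM there (1541 UMIs), 4.04 times its 245 CPM in connecting tubule-like nuclei, which in turn were 13.2 times above the next class. SCNN1G was at 1048 CPM and 1.23 times its level of 855 in connecting tubule-like nuclei. SCNN1B was at 617 CPM, 1.38 times the 446 in connecting tubule-like nuclei. With the libraries pooled, the intervals of both classes did not overlap for any of these genes, and the gap was widest for AQP2. In the perfused library alone those of SCNN1G overlapped. It was at 1126 CPM (1054 to 1201) in principal cell-like and 1021 CPM (969 to 1075) in connecting tubule-like nuclei. For SCNN1G and SCNN1B the third class lay 15.4 and 28.7 times below the connecting tubule-like nuclei, and the orders from the third class on were not resolved by the counting intervals.

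FXYD4, AQP3 and AVPR2 had no such second class. FXYD4 stood at 887 CPM in principal cell-like nuclei, 12.3 times the 72.2 CPM of immune-like nuclei, and connecting tubule-like nuclei followed with 67.4 CPM. AQP3 reached 172 CPM, 4.96 times its level of 34.6 CPM in immune-like nuclei. AVPR2, the least often counted of the 6 with 138 UMIs in all nuclei, reached 25.7 CPM, 3.99 times the 6.44 CPM in immune-like nuclei. In each of these orders the second and the third class did not differ beyond their counting intervals.

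**Figure D1:**
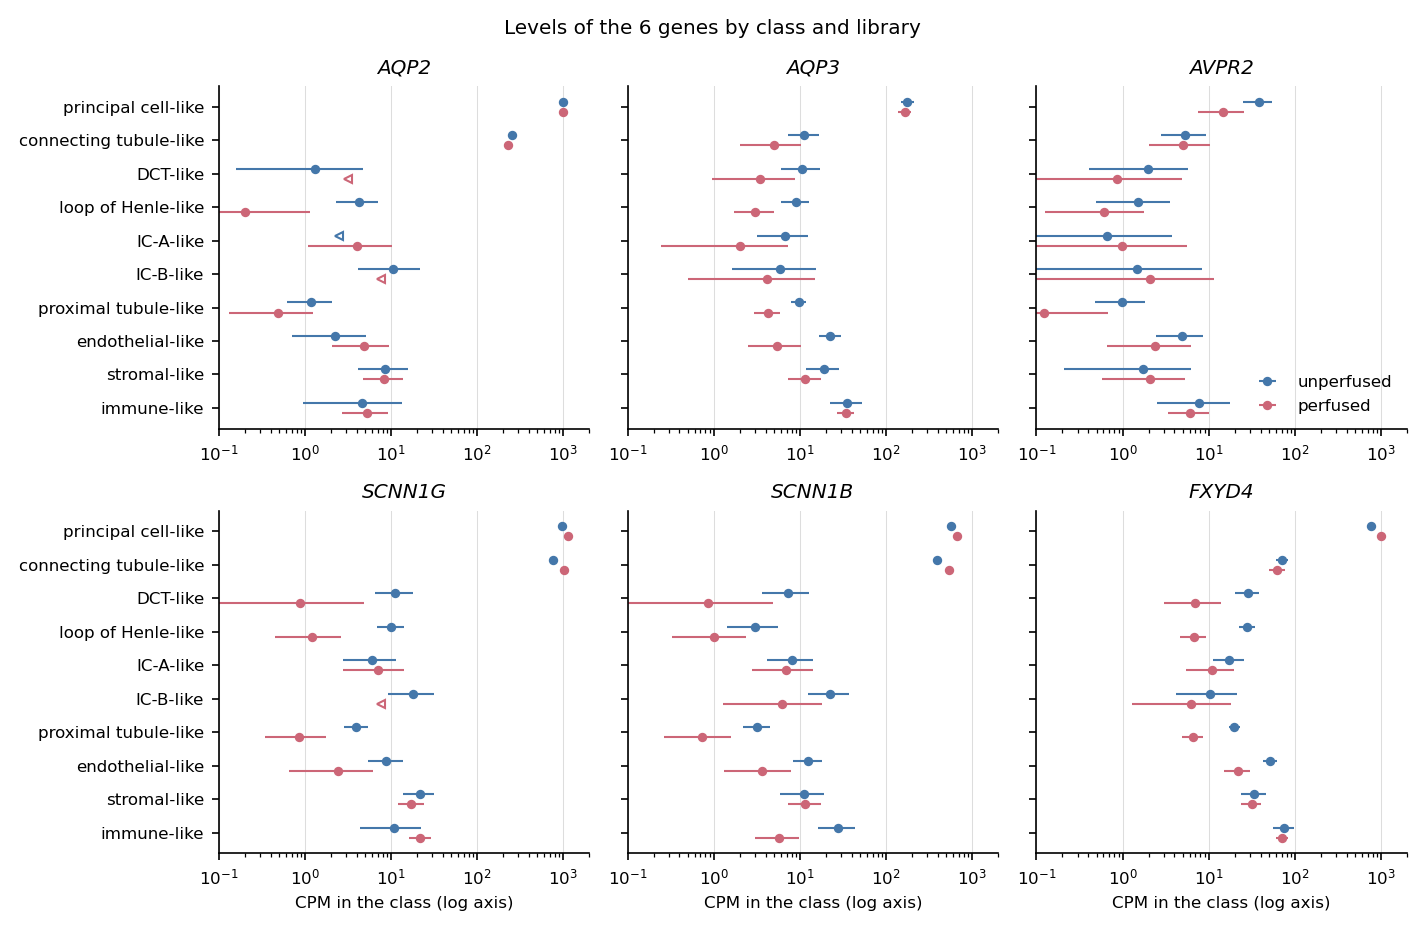
Level of each gene in 10 named classes in CPM (log axis, shown from 0.1 upward) for the unperfused and the perfused library, with exact Poisson 95% intervals that cover counting error only; an open triangle marks the upper limit where no UMI was counted. AQP2, SCNN1G and SCNN1B stand high in principal cell-like and connecting tubule-like nuclei, and AQP3, AVPR2 and FXYD4 in principal cell-like nuclei alone.

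Most UMIs of AQP2 and of the ENaC subunits lay in these classes. Principal cell-like and connecting tubule-like nuclei together held 95.5% of the AQP2 UMIs (exact binomial 95% interval 94.7 to 96.3), 93.5% of those of SCNN1G (92.8 to 94.1) and 91.6% of those of SCNN1B (90.5 to 92.6). The same classes held 60.6% of the FXYD4 UMIs (58.7 to 62.4), 42.8% of those of AVPR2 (34.4 to 51.5) and 39.4% of those of AQP3 (35.9 to 43.0). For these last 3 genes a large part of the molecules was therefore counted outside the collecting system, at low levels in many nuclei.

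By library, principal cell-like nuclei held 53.6% of the unperfused and 68.4% of the perfused AQP2 UMIs. The shares were 41.1% and 62.4% for FXYD4, 29.9% and 42.4% for AQP3, 27.5% and 36.8% for SCNN1G, and 28.9% and 39.3% for SCNN1B. Only AVPR2 had the lower share in the perfused library, 32.2% (22.6 to 43.1) against 23.5% (12.8 to 37.5), with intervals that overlapped. These shares also move with the number of connecting tubule-like nuclei, which were 8.09% of the unperfused and 4.11% of the perfused nuclei, so a difference in level cannot be read from them.

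Over all principal cell-like nuclei, the intervals of both water channels' ratios held 0. AQP2 was at 990 CPM in the unperfused library (731 UMIs, exact Poisson 95% interval 919 to 1064) and at 990 CPM in the perfused library (810 UMIs, 923 to 1061). The log2 ratio, here and below that of the perfused over the unperfused CPM, came to 0.00 (exact conditional binomial 95% interval −0.15 to 0.15). AQP3, through which water leaves toward the blood, was at 177 CPM (131 UMIs) and 166 CPM (136 UMIs), with a log2 ratio of −0.09 (−0.45 to 0.26). In the 32 unperfused and 21 perfused nuclei without a UMI of 8 markers of other lineages the log2 ratio was 0.77 (0.36 to 1.18) for AQP2 and 1.15 (0.16 to 2.19) for AQP3. All intervals of this kind cover counting error only and are too narrow where molecules gather in few nuclei.

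AVPR2 was the gene with the lower level in the perfused library. It was at 37.9 CPM in the unperfused library (28 UMIs in 26 of 176 nuclei) and at 14.7 CPM in the perfused library (12 UMIs in 11 of 150 nuclei), a log2 ratio of −1.37 (−2.48 to −0.35). These are few molecules, and the result turned on some nuclei of the unperfused library: without the 37 unperfused and 3 perfused nuclei that had over 0.5% mitochondrial UMIs, 15 and 12 UMIs were left and the log2 ratio was −0.88 (−2.10 to 0.32). The 32 and 21 nuclei without markers of other lineages held 2 and 3 UMIs of AVPR2, from which no direction can be read.

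SCNN1G, SCNN1B and FXYD4 had the higher level in the perfused library. SCNN1G, the gamma subunit, was at 963 CPM (711 UMIs) and 1126 CPM (921 UMIs), a log2 ratio of 0.23 (0.08 to 0.37). SCNN1B, the beta subunit, was at 562 CPM (415 UMIs) and 666 CPM (545 UMIs), a log2 ratio of 0.25 (0.06 to 0.43). FXYD4 differed most, from 772 CPM (570 UMIs) to 990 CPM (810 UMIs), a log2 ratio of 0.36 (0.20 to 0.52). Over all nuclei of the class the ratio of SCNN1G to SCNN1B UMIs was 1.71 (1.52 to 1.94) without and 1.69 (1.52 to 1.88) with perfusion. Without the nuclei over 0.5% mitochondrial UMIs the log2 ratio was 0.43 for FXYD4, 0.29 for SCNN1G and 0.20 for SCNN1B, the last with an interval that reached 0. After thinning to 1000 UMIs it was 0.43 (0.09 to 0.77) for FXYD4, 0.29 (−0.03 to 0.62) for SCNN1G and 0.04 (−0.38 to 0.46) for SCNN1B. Differences between the genes' ratios were not tested.

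Such differences were frequent among all genes of these nuclei. Of the 8508 genes with at least 20 UMIs in principal cell-like nuclei, 9.98% had a counting interval wholly above 0 and 15.1% one wholly below 0. A ratio of at least 2-fold was found toward the perfused library for 3.49% of the genes and toward the unperfused library for 9.74%. Among the 6 genes, 3 had an interval above 0 and 1 had an interval below 0, and AVPR2 alone was beyond 2-fold. The shares of all genes were not matched for UMIs, and genes with more UMIs have narrower intervals. SCNN1G, SCNN1B and FXYD4 had 1632, 960 and 1380 UMIs in this class. These counts thus cannot be read as particular to the 6 genes. The median log2 ratio was 0.11 over the 6 genes and −0.11 over all 8508, and scaling by TMM or by DESeq2 size factors would raise every log2 ratio in this class by 0.11.

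Other measures of these nuclei moved between the libraries as well. Mitochondrial UMIs were 0.339% of the total in unperfused and 0.0952% in perfused principal cell-like nuclei, and UMIs of 67 ribosomal protein genes 0.486% and 0.260%. The 6 markers of type B intercalated cells, the neighbours of the principal cell in the duct, summed to 77.2 CPM (57 UMIs, none of the 6 at 0) and 3.67 CPM (3 UMIs, 3 of the 6 at 0). The 8 markers of type A intercalated cells summed to 244 CPM (none at 0) and 123 CPM (3 at 0, among them SLC4A1). The 10 proximal tubule markers summed to 463 and 301 CPM with none at 0, and 6 markers of injured proximal tubule to 130 CPM (1 at 0) and 361 CPM (2 at 0). DCDC2 made up 82 of the 96 and 285 of the 295 UMIs of that last sum. Without the 102 unperfused and 70 perfused nuclei that had a UMI of an intercalated cell marker, the log2 ratio was 0.58 for FXYD4, 0.49 for SCNN1G, 0.14 (−0.15 to 0.43) for SCNN1B, −0.18 (−0.42 to 0.05) for AQP2 and −0.43 (−2.23 to 1.42) for AVPR2. FXYD4 and SCNN1G were thus higher in the perfused library, with intervals above 0, in these nuclei and in those of at most 0.5% mitochondrial UMIs. In the 32 and 21 nuclei without markers of other lineages, the log2 ratio was 0.52 (0.07 to 0.98) for FXYD4, 0.16 (−0.27 to 0.58) for SCNN1G and −0.05 (−0.58 to 0.48) for SCNN1B. Of the genes higher in all nuclei of the class, FXYD4 alone kept an interval above 0 in each of these 3 subsets, and the part of other cells' RNA in the differences was not tested.

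**Figure D2:**
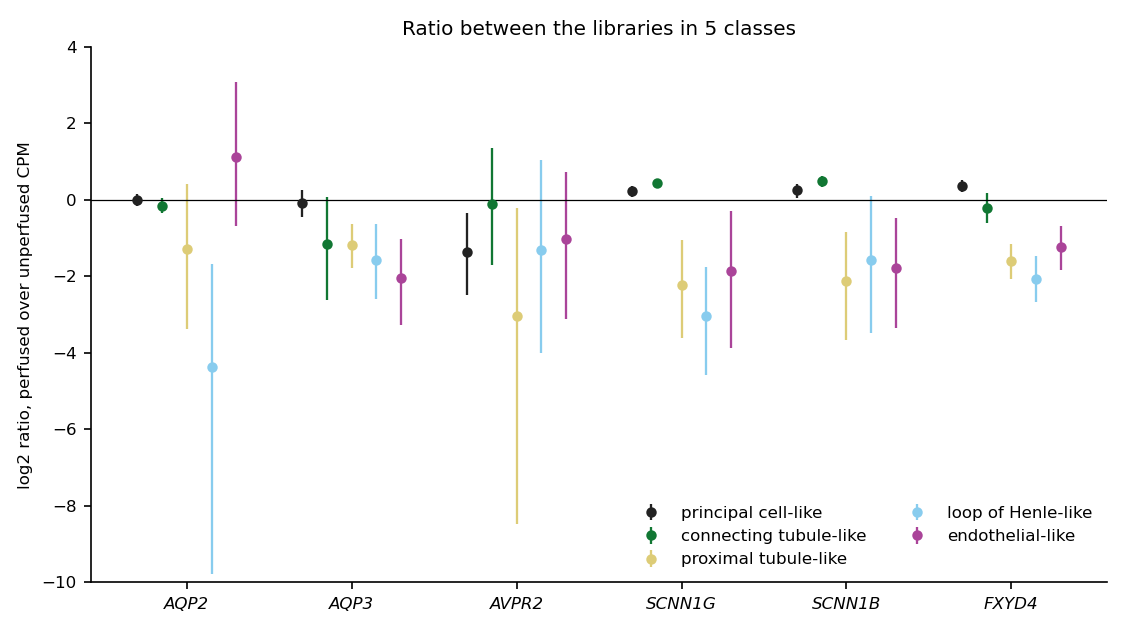
Log2 ratio of perfused over unperfused CPM of each gene in 5 classes, with exact 95% intervals from the counts; the line marks equal levels. SCNN1G and SCNN1B lie above the line in principal cell-like and connecting tubule-like nuclei and below it in proximal tubule-like, loop of Henle-like and endothelial-like nuclei, and FXYD4 lies above it in principal cell-like nuclei alone.

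In connecting tubule-like nuclei, the beta and gamma subunits of ENaC were again higher in the perfused library, while SCNN1A, described further on, was lower. SCNN1G was at 751 CPM (1685 UMIs) and 1021 CPM (1436 UMIs), a log2 ratio of 0.44 (0.34 to 0.55). SCNN1B was at 385 CPM (864 UMIs) and 543 CPM (764 UMIs), a log2 ratio of 0.50 (0.35 to 0.64). The ratio of SCNN1G to SCNN1B UMIs was 1.95 (1.80 to 2.12) and 1.88 (1.72 to 2.05) over all nuclei of the class. When nuclei were thinned to 1000 UMIs the log2 ratio was 0.24 (−0.00 to 0.47) for SCNN1G and 0.45 (0.13 to 0.76) for SCNN1B. For SCNN1G it was 0.04 (−0.26 to 0.33) in the 83 and 34 nuclei without a UMI of another lineage's marker, where SCNN1B stood at 0.46 (0.07 to 0.85). Whether the subunits differed in their ratios was not tested.

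The other genes were not higher in perfused connecting tubule-like nuclei. AQP2 was at 255 CPM (571 UMIs) and 230 CPM (323 UMIs), a log2 ratio of −0.15 (−0.35 to 0.05), and FXYD4 at 70.9 CPM (159 UMIs) and 61.9 CPM (87 UMIs), a log2 ratio of −0.20 (−0.59 to 0.19). AQP3 was counted 25 and 7 times, at 11.1 and 4.98 CPM (log2 ratio −1.16, −2.62 to 0.09). AVPR2 was counted 12 and 7 times, at 5.35 and 4.98 CPM. Intervals of AQP2, FXYD4, AQP3 and AVPR2 all held 0 in this class.

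Of the 11137 genes with at least 20 UMIs in connecting tubule-like nuclei, 9.20% had an interval above 0 and 12.8% one below 0, with 1.58% at least 2-fold higher and 7.39% at least 2-fold lower in the perfused library. Of the 5 described genes with that many UMIs, 2 had an interval above 0 and none one below 0, and AQP3 alone was beyond 2-fold. Here too the shares of all genes were not matched for UMIs. Mitochondrial UMIs were 0.0724% and 0.0981% of the total in this class, and the markers of type B intercalated cells summed to 20.1 and 11.4 CPM. The 10 proximal tubule markers summed to 500 and 353 CPM with none at 0, and the 8 immune markers to 142 CPM (1 at 0) and 172 CPM (none at 0). Within the immune list PTPRC was at 4.46 and 14.2 CPM, RUNX1 at 3.12 and 21.3 and IKZF1 at 3.12 and 12.8, and CD74 at 124 and 107. Of the markers of the class itself, SLC8A1 was at 14738 and 16184 CPM and CALB1 at 365 and 229, and TRPV5 had 83 and 22 UMIs. The part of these differences in the ratios of the 6 genes was not tested.

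The connecting tubule-like nuclei were not uniform for these genes, whose levels varied with SLC8A1, the sodium-calcium exchanger that marks the class. Nuclei were put into 3 groups of equal size by SLC8A1 CPM in each library, after the values were first seen. SLC8A1 itself was at 394, 2624 and 34590 CPM from the lowest to the highest unperfused group and at 446, 3662 and 41926 CPM in the perfused groups, against 319 CPM in all nuclei outside the class. AQP2 was at 349, 303 and 147 CPM in the same order in the unperfused library, and at 342, 276 and 84.0 CPM in the perfused library. A UMI of AQP2 was present in 55.5%, 47.7% and 19.8% of the unperfused and 58.7%, 50.0% and 20.3% of the perfused nuclei of these groups. Thus AQP2 was lowest where SLC8A1 was highest, in both libraries, with intervals of the lowest and the highest group that did not overlap.

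The ENaC subunits were also lowest in the group richest in SLC8A1. SCNN1G was at 1010, 876 and 462 CPM in the unperfused and at 1134, 1199 and 760 CPM in the perfused groups. In principal cell-like nuclei it was at 963 and 1126 CPM, and the intervals of the lowest groups overlapped with these. SCNN1B was at 475, 508 and 226 CPM in the unperfused and at 554, 675 and 418 CPM in the perfused groups. In the middle and the highest group the perfused level was above the unperfused level for both subunits, with intervals apart. In the lowest group the intervals overlapped. FXYD4 was at 101, 69.1 and 49.0 CPM in the unperfused and at 123, 57.4 and 8.0 CPM in the perfused groups, so that the perfused nuclei richest in SLC8A1 had 4 UMIs of FXYD4 in all. CALB1, a calcium-binding protein of the same segment, ran the other way, at 64.7, 149 and 752 CPM and at 23.4, 124 and 514 CPM. SLC12A3, the sodium chloride carrier of the distal convoluted tubule just upstream, was at 27.9, 52.6 and 321 CPM and at 46.7, 43.6 and 238 CPM, so that the groups poorest in AQP2 also held the most of this distal convoluted tubule marker.

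**Figure D3:**
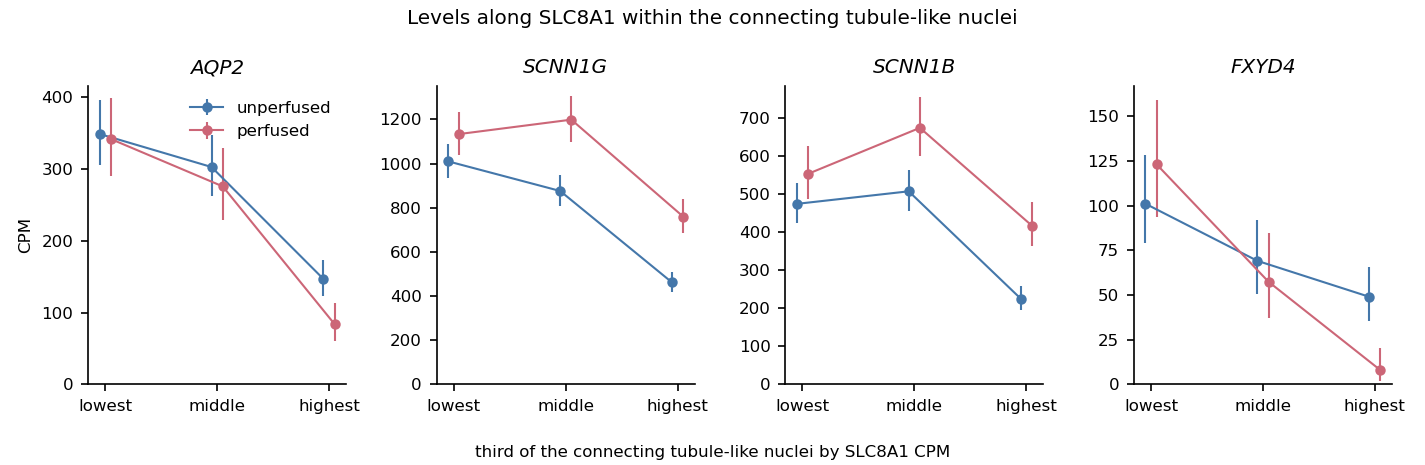
Levels of AQP2, SCNN1G, SCNN1B and FXYD4 in CPM in connecting tubule-like nuclei put into 3 groups by SLC8A1 CPM within each library (172 or 173 unperfused and 74 or 75 perfused nuclei per group), with exact Poisson 95% intervals. AQP2 is at 349 and 342 CPM in the lowest and at 147 and 84.0 CPM in the highest group, and the perfused values of SCNN1G and SCNN1B lie above the unperfused ones in each group.

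A split by AQP2 itself showed nuclei of both kinds. The 212 unperfused connecting tubule-like nuclei with a UMI of AQP2 had SCNN1G at 1033 CPM and FXYD4 at 118 CPM, against 564 and 39.4 CPM in the 305 nuclei without one. In the perfused library the 96 nuclei with a UMI of AQP2 had SCNN1G at 1334 and FXYD4 at 128 CPM, against 752 and 5.29 CPM in the 127 nuclei without one. Median UMIs were close in the unperfused library (4014 and 4000) and further apart in the perfused library (6266 and 5403). The 7 markers of the connecting tubule summed to 4691 CPM with and 22390 CPM without AQP2 in the unperfused, and to 6280 and 25588 CPM in the perfused library. Over the whole class SLC8A1 made up 33063 of the 34359 unperfused and 22758 of the 23418 perfused UMIs of this sum. The sum therefore mostly follows SLC8A1, as the groups above do. Between the libraries, the log2 ratio of SCNN1G was 0.37 (0.23 to 0.50) in nuclei with and 0.42 (0.26 to 0.57) in nuclei without AQP2, and that of SCNN1B was 0.33 (0.13 to 0.52) and 0.61 (0.40 to 0.82). FXYD4 was level in nuclei with AQP2 (0.11, −0.32 to 0.54) and lower in perfused nuclei without it (−2.89, −4.82 to −1.45, from 53 to 4 UMIs). The 22 perfused nuclei of the class richest in FXYD4 held 90.8% of its UMIs, 14 of them in 1 nucleus, so these intervals are too narrow. The nuclei without AQP2 also differed in depth between the libraries.

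Among principal cell-like nuclei, 20 of the 176 unperfused and 23 of the 150 perfused ones had no UMI of AQP2. Their medians of 2844 and 3848 UMIs were below those of the nuclei with AQP2 (3821 and 5497). Levels of the genes of sodium handling had overlapping intervals in both sets. SCNN1G was at 880 and 1164 CPM without AQP2 against 969 and 1121 CPM with it, and FXYD4 at 740 and 1005 CPM against 774 and 988 CPM. AQP3 was at 70.4 CPM (4 UMIs) and 22.6 CPM (2 UMIs) without AQP2 against 186 and 184 CPM with it. In the perfused library the intervals of these AQP3 levels were apart (2.74 to 81.6 and 154 to 218).

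A UMI of AQP2 was found in 88.6% of unperfused principal cell-like nuclei (exact binomial 95% interval 83.0 to 92.9) and in 84.7% of perfused ones (77.9 to 90). The shares were 88.1% and 83.3% for SCNN1G, 83.0% and 86.7% for SCNN1B, and 87.5% and 90% for FXYD4. AQP3 was found in 38.1% (30.9 to 45.7) and 30.7% (23.4 to 38.7), and AVPR2 in 14.8% (9.88 to 20.9) and 7.33% (3.72 to 12.7). For each of the 6 genes the intervals of the libraries overlapped. In proximal tubule-like nuclei, a segment not known for AQP2 or ENaC, shares were 0.618% and 0.333% for AQP2, 2.08% and 0.583% for SCNN1G, 5.17% and 2.83% for AQP3, and 10.0% and 4.25% for FXYD4, at medians of 5288 and 6623 UMIs.

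Shares depend on depth, so nuclei were also thinned to 1000 UMIs each, for which all 176 and 150 principal cell-like nuclei were deep enough. AQP2 was then found in 57.4% and 50.7%, SCNN1G in 49.4% and 50.7%, SCNN1B in 44.3% and 46.0%, and FXYD4 in 47.7% and 56.0%. AQP3 was found in 14.2% and 11.3% and AVPR2 in 3.98% and 2.0%. None of these pairs differed beyond their intervals. In thinned connecting tubule-like nuclei (6 and 3 shallower ones left out) SCNN1B was found in 31.9% (27.9 to 36.1) and 42.3% (35.7 to 49.1), and SCNN1G in 47.9% and 52.3%. At full depth the shares in that class had been 66.2% and 86.5% for SCNN1B and 74.1% and 83.4% for SCNN1G.

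**Figure D4:**
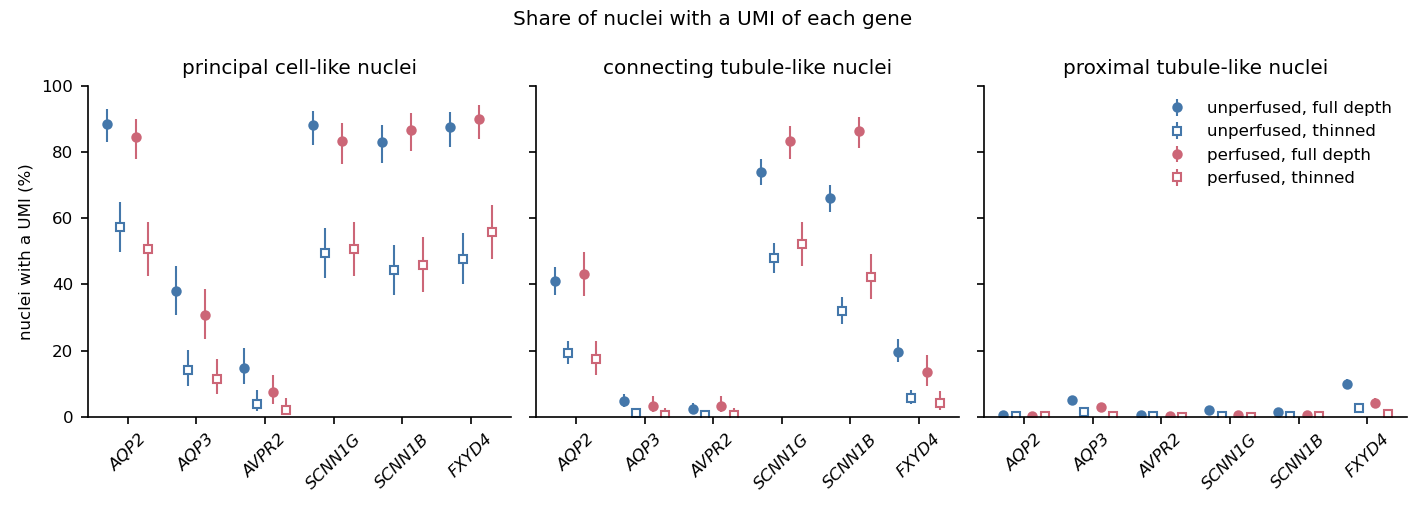
Percent of principal cell-like, connecting tubule-like and proximal tubule-like nuclei with at least 1 UMI of each gene, at full depth (filled circles) and after thinning to 1000 UMIs per nucleus (open squares), with exact binomial 95% intervals. In principal cell-like nuclei AQP2, SCNN1G, SCNN1B and FXYD4 lie between 83.0% and 90% at full depth and between 44.3% and 57.4% after thinning, with overlapping intervals in both libraries.

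The molecules were spread over many nuclei for the abundant genes. The median principal cell-like nucleus had 3 UMIs of AQP2, 3 of SCNN1G, 2 of SCNN1B and 3 of FXYD4 in the unperfused library, and 4, 4, 3 and 4 in the perfused library. The richest nucleus held 19 and 36 UMIs of AQP2, which were 2.60% and 4.44% of the class total. The 17 richest unperfused nuclei held 28.2% of the AQP2 UMIs and 48.9% of those of AQP3, and the 15 richest perfused nuclei 35.7% and 64.0%. A gene with few UMIs has a larger share in its richest nuclei by that alone, so these shares are not compared between genes.

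Most principal cell-like nuclei carried several of the genes. Exactly 4 of the 6 were found in 44.9% of unperfused and 50.7% of perfused nuclei, and all 6 in 12 and 3 nuclei. All unperfused nuclei had at least 2, while 2 perfused nuclei had none and 5 had 1. In connecting tubule-like nuclei the most frequent number was 2 (31.9% and 37.2%), and no nucleus had all 6. In proximal tubule-like nuclei 81.6% and 91.6% had none.

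Pairs of genes were found together about as often as their single shares would give in principal cell-like nuclei. AQP2 and SCNN1G occurred together in 78.4% of unperfused nuclei (71.6 to 84.2) against a product of the single shares of 78.1%, and in 73.3% of perfused nuclei (65.5 to 80.2) against 70.6%. Of the 15 pairs, 1 in the unperfused library had an interval above the product, AQP3 with AVPR2, at 9.66% (5.73 to 15) against 5.62%, and no pair did in the perfused library. After thinning to 1000 UMIs that pair was at 0.568% (0.0144 to 3.12) against 0.565%. In connecting tubule-like nuclei SCNN1G and SCNN1B were together in 54.5% (50.1 to 58.9) against 49.0% and in 77.1% (71.1 to 82.5) against 72.2%. In that class 5 pairs in the unperfused library and 1 in the perfused library had an interval above the product. AQP2 and FXYD4 were together in 12.0% (9.32 to 15.1) against 8.09% and in 11.7% (7.76 to 16.6) against 5.79%. After thinning, 1 pair in each library had an interval above the product in this class. In the unperfused library it was SCNN1G with SCNN1B, at 20.4% (16.9 to 24.1) against 15.3%. In the perfused library it was AQP2 with FXYD4, at 2.27% (0.742 to 5.22) against 0.707%, from 5 nuclei. Unperfused AQP2 with FXYD4 was then at 1.37% (0.552 to 2.80) against 1.09%. Nuclei that differ in depth give joint shares above the product by themselves, and their part in the values at full depth was not tested. The thinned nuclei all had 1000 UMIs, and the cause of the thinned values was not tested.

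In the classes other than principal cell-like and connecting tubule-like nuclei, intercalated cell-like nuclei included, the levels were low and most were lower in the perfused library. FXYD4 was at 19.9 CPM (201 UMIs) and 6.54 CPM (54 UMIs) in proximal tubule-like nuclei, a log2 ratio of −1.60 (−2.06 to −1.16), and at 51.2 and 21.7 CPM in endothelial-like nuclei, a log2 ratio of −1.24 (−1.82 to −0.69). SCNN1G was at 3.95 CPM (40 UMIs) and 0.848 CPM (7 UMIs) in proximal tubule-like nuclei. FXYD4 had at least 20 UMIs in 9 classes or unnamed clusters besides principal cell-like and connecting tubule-like nuclei, was lower in the perfused library in 9 of them, and had an interval below 0 in 5. AQP3 was lower in 6 of 6 such classes, in 3 with an interval below 0, and none of the 6 genes had an interval above 0 in such a class. The shares of all genes in these classes are not given here, so these counts cannot be read as particular to the 6 genes. Of all genes in principal cell-like and connecting tubule-like nuclei, 15.1% and 12.8% had an interval below 0, against 9.98% and 9.20% above. In stromal-like and immune-like nuclei FXYD4 was level (33.4 and 31.4 CPM, 74.8 and 71.5 CPM).

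The mix of these low counts differed from that of principal cell-like nuclei. For each UMI of AQP2 there were 0.780 (0.698 to 0.871) and 1.0 (0.906 to 1.1) UMIs of FXYD4 in principal cell-like nuclei of the unperfused and the perfused library, but 16.8 (9.38 to 33.0) and 13.5 (4.98 to 51.3) in proximal tubule-like nuclei. For AQP3 the ratio to AQP2 was 0.179 and 0.168 in principal cell-like and 8.17 and 8.75 in proximal tubule-like nuclei. In proximal tubule-like nuclei FXYD4 and AQP3 thus were not counted in the proportions of the principal cell. The ratio of SCNN1G to SCNN1B was 1.25 (0.766 to 2.06) in unperfused proximal tubule-like nuclei. That interval held the 1.71 of the unperfused principal cell-like nuclei. The intervals of perfused proximal tubule-like and perfused endothelial-like nuclei also held the principal cell ratio of their library. Those of loop of Henle-like and stromal-like nuclei held it in both libraries. The intervals of unperfused endothelial-like nuclei (0.714, 0.381 to 1.31) and of unperfused (0.389, 0.137 to 0.976) and perfused (3.85, 2.06 to 7.72) immune-like nuclei did not hold it. In immune-like nuclei SCNN1G was counted 7 and 50 times, 13 of the 50 in 1 nucleus, and SCNN1B 18 and 13 times.

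Over the 20 clusters, both libraries pooled, log2(CPM + 5) of AQP2 ran closely with SCNN1G (Pearson r = 0.968) and SCNN1B (0.967), and SCNN1G with SCNN1B (0.946). AQP3 ran closest with FXYD4 (0.873) and least with SCNN1G (0.593), and AVPR2 closest with FXYD4 (0.860). These are descriptions over clusters that differ in size and depth. The genes stood high only in the principal cell-like cluster or in that and the connecting tubule-like cluster. Each r, here and in the next paragraph, thus leans heavily on these clusters and does not show a graded relation over all 20.

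Of 11027 other genes with a symbol and at least 200 UMIs, those with the pattern most like AQP2 were MARCHF11, a membrane-bound ubiquitin ligase (r = 0.968), L1CAM, an adhesion molecule (0.946), and SLC9A4, a sodium-proton exchanger (0.941). For SCNN1G they were MARCHF11 (0.943), PTGFR, the receptor of prostaglandin F (0.933), and L1CAM (0.916). For SCNN1B they were ATP12A, the non-gastric proton-potassium pump (0.941), MARCHF11 (0.918) and L1CAM (0.900). FXYD4 was most like L1CAM (0.915), SLC9A4 (0.905) and UPK3A, a uroplakin (0.902), AQP3 like UPK3A (0.817), GALNTL5 (0.794) and YPEL3 (0.783), and AVPR2 like SCYL3 (0.856), MGAM (0.829) and KIF26B, a kinesin (0.812). ATP12A was higher in connecting tubule-like than in principal cell-like nuclei (261 and 141 CPM) and UPK3A higher in principal cell-like nuclei (78.4 against 6.58 CPM). In the RefSeq annotation of Sscrofa11.1, SCNN1B and SCNN1G are neighbours among the protein-coding genes, AQP2 lies next to AQP5, AQP3 next to AQP7, and AVPR2 next to L1CAM.

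Of 68 other genes of the same pathways, 60 were found by symbol. In principal cell-like nuclei 34 had at least 20 UMIs, of which 12 had an interval above 0 and 4 one below 0, with a median log2 ratio of 0.07. Among connecting tubule-like nuclei 43 had at least 20 UMIs, of which 11 had an interval above 0 and 6 one below 0, with a median of 0.04. The shares of all genes given above are the background for both counts, but they were not matched for UMIs.

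Other aquaporins were scarce in principal cell-like nuclei, where only AQP1 had 20 UMIs or more (15 and 8 UMIs, 20.3 and 9.78 CPM). AQP5, the neighbour of AQP2, was counted 0 and 4 times, and AQP11 4 times in each library. Of the receptors, PTGER1, a prostaglandin E receptor, had its highest level in principal cell-like nuclei (16 and 13 UMIs, log2 ratio −0.45, −1.62 to 0.70), and 46.0% of its UMIs lay there. PTGER4 was counted 4 and 3 times and EDNRB, an endothelin receptor, 4 and 5 times.

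The list for cAMP signalling, on which AVPR2 acts, also held NFAT5. Of its 14 genes 10 had enough UMIs, 4 with an interval above 0, NFAT5 among them, and 1 with an interval below 0, against 9.98% and 15.1% of all genes. The 1 below 0 was PRKAR1A, named after its values were seen, at 62.3 and 36.7 CPM (log2 ratio −0.76, −1.48 to −0.07). ADCY6, an adenylyl cyclase, was at 134 and 169 CPM (log2 ratio 0.33, −0.05 to 0.72). PRKACA, a catalytic subunit of protein kinase A, was at 13.5 CPM (10 UMIs) and 33.0 CPM (27 UMIs), a log2 ratio of 1.29 (0.19 to 2.50). With both libraries pooled, its level in principal cell-like nuclei (23.8 CPM) was in rank 9 of the 12 named classes. The part of other cells' RNA in these counts was not tested. PDE4D, which breaks down cAMP, was at 341 and 443 CPM (0.38, 0.14 to 0.61), and NFAT5, the transcription factor of the response to hypertonicity, at 907 CPM (670 UMIs) and 1573 CPM (1287 UMIs), a log2 ratio of 0.79 (0.66 to 0.93). NFAT5 was at 477 and 524 CPM in connecting tubule-like nuclei (0.14, −0.00 to 0.27).

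The alpha subunit SCNN1A differed from its partners in where its UMIs lay, while differences between its ratios and theirs were not tested. It was at 110 CPM (81 UMIs) and 131 CPM (107 UMIs) in principal cell-like nuclei, a log2 ratio of 0.25 (−0.18 to 0.69), and at 166 and 138 CPM in connecting tubule-like nuclei, a log2 ratio of −0.27 (−0.52 to −0.01). Principal cell-like and connecting tubule-like nuclei held 4.68% and 14.1% of its UMIs, and its level was highest in type B intercalated-like (249 CPM), loop of Henle-like (206 CPM) and type A intercalated-like nuclei (189 CPM), with principal cell-like nuclei in rank 6 of 12. NEDD4L, the ligase that takes ENaC off the surface, was at 3069 and 3897 CPM in principal cell-like nuclei (log2 ratio 0.34, 0.27 to 0.42) and at 2651 and 3372 CPM in connecting tubule-like nuclei (0.35, 0.29 to 0.40). Of the proteases, FURIN, which cleaves ENaC subunits, was at 32.5 CPM (24 UMIs) and 11.0 CPM (9 UMIs). Its log2 ratio was −1.56 (−2.85 to −0.41). With both libraries pooled, its level in principal cell-like nuclei was in rank 11 of 12, at 21.2 CPM against 53.0 CPM in endothelial-like nuclei. The part of other cells' RNA in its few counts was not tested. TMPRSS2 was at 192 and 171 CPM (−0.17, −0.51 to 0.18). PRSS8, named after its values were seen, was counted 19 and 15 times (−0.49, −1.57 to 0.57).

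Of the mineralocorticoid axis, which controls ENaC, 7 genes had enough UMIs in principal cell-like nuclei, 2 with an interval above and 1 with an interval below 0, against the same shares of all genes. NR3C2, the mineralocorticoid receptor, was at 2130 CPM (1573 UMIs) and 2567 CPM (2100 UMIs), a log2 ratio of 0.27 (0.17 to 0.36), and had the same log2 ratio of 0.27 (0.21 to 0.33) in connecting tubule-like nuclei. HSD11B2, the enzyme that keeps cortisol from this receptor, was at 130 CPM (96 UMIs) and 84.3 CPM (69 UMIs), a log2 ratio of −0.62 (−1.09 to −0.16), and at 129 and 109 CPM in connecting tubule-like nuclei (−0.24, −0.54 to 0.04). FKBP5, a glucocorticoid-induced chaperone, was counted 7 and 20 times (1.37, 0.07 to 2.85). With both libraries pooled, its level in principal cell-like nuclei was the lowest of the 12 named classes, at 17.3 CPM against 451 CPM in stromal-like nuclei. The part of other cells' RNA in these few counts was not tested. WNK1, a kinase of salt transport, was at 115 and 137 CPM (0.25, −0.17 to 0.67). The interval of HSD11B2 thus lay below 0 in principal cell-like nuclei only, and held 0 in connecting tubule-like nuclei. No gene of the pathway list, NR3C2 and HSD11B2 included, was examined in the subsets of nuclei or after thinning.

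ATP1B1, the beta subunit of the sodium pump, with which FXYD proteins associate, was at 1936 CPM (1430 UMIs) and 1512 CPM (1237 UMIs) in principal cell-like nuclei, a log2 ratio of −0.36 (−0.47 to −0.25). Its levels in connecting tubule-like nuclei were 2480 and 2779 CPM (log2 ratio 0.16, 0.10 to 0.22). FXYD3, the only other FXYD gene of the list found by symbol, was at 0 in both classes.

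Of the potassium channels, KCNJ16 was at 138 and 108 CPM in principal cell-like nuclei (log2 ratio −0.36, −0.79 to 0.07), KCNJ1, the secretory channel, was counted 6 and 0 times, and KCNMB4 2 and 4 times. In connecting tubule-like nuclei KCNJ1 was at 83.4 and 36.3 CPM (187 and 51 UMIs, log2 ratio −1.20, −1.68 to −0.75), while KCNMA1, named after its values were seen, was at 16.5 and 34.8 CPM (37 and 49 UMIs, 1.08, 0.43 to 1.74). The protease KLK1, also named after its values were seen, was at 285 and 106 CPM there (640 and 149 UMIs, log2 ratio −1.43, −1.70 to −1.17). The urea carriers SLC14A1 and SLC14A2 were at 0 in principal cell-like nuclei. Of 5 transcription factors of the collecting duct with enough UMIs, 4 had an interval above 0, against 9.98% of all genes, and HOXB7 was counted only 6 and 2 times. ELF3 was at 52.8 CPM (39 UMIs) and 112 CPM (92 UMIs), a log2 ratio of 1.09 (0.54 to 1.67), PAX2 at 375 and 567 CPM (0.60, 0.38 to 0.82) and GRHL2 at 379 and 507 CPM (0.42, 0.20 to 0.64). TFCP2L1 was at 463 and 504 CPM (0.12, −0.09 to 0.33).

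**Figure D5:**
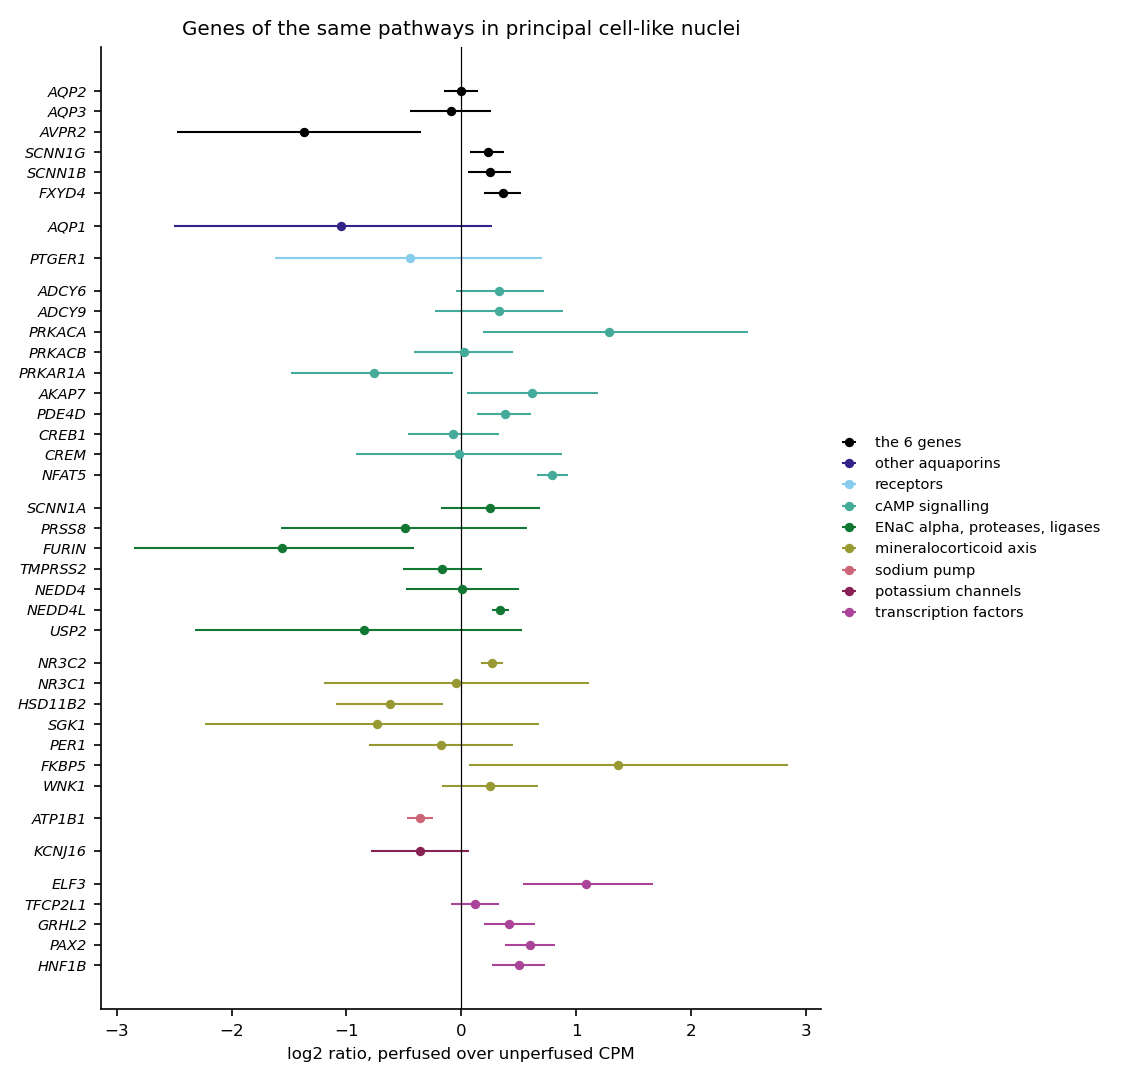
Log2 ratio of perfused over unperfused CPM in principal cell-like nuclei for the 6 genes (black) and the other pathway genes reported here with at least 20 UMIs, colored by role, with exact 95% intervals from the counts. AVPR2, FURIN, PRKACA, FKBP5 and ELF3 are the genes beyond 1 on the log2 scale with an interval without 0, the first 2 lower and the other 3 higher in the perfused library. FKBP5 had its lowest level of the named classes in these nuclei, and FURIN and PRKACA were in ranks 11 and 9 of 12.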

How the data were processed

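The authors ran Cell Ranger 5.0.1 on a pig reference from Ensembl release 103 with intronic reads included. They deposited raw UMI counts, all whole numbers, here treated as preceding their SoupX correction; their handling of multi-mapping reads was not given in the sources used here.

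Kept barcodes had 500 to 6000 genes and no more than 7% mitochondrial UMIs. Scrublet (scanpy 1.11.5) removed 641 doublets from the unperfused and 489 from the perfused library. Integration in Seurat 5.3.0 (R 4.3.3) used 2000 variable genes, leaving out the 6 genes and the pathway list, 30 anchor dimensions, 15 principal components and resolution 0.5. Genes were sought by symbol only. Of the 31908 genes in the files, 16554 had a deposited symbol and 822 were given one here, and the others were not searched. Of the 106 marker list genes, 101 were found. Naming a cluster took 3 markers of 1 list with a log2 fold over 1 and a UMI in at least 5% of its nuclei. Its 10 leading genes could not favour another list. The 5% was set after values were seen: at 10% the connecting tubule-like cluster has 2 such markers and no name. UMIs were summed by class and library. Intervals are exact (Poisson, Clopper-Pearson or conditional binomial). Only those of the log2 ratios were tried on simulated counts. These were drawn as Poisson sums, so the gathering of molecules in few nuclei was not covered. Bounds replaced a count of 0 by 3. With 1 library per condition no test was possible. Scaling by edgeR 4.0.16 (TMM) or DESeq2 1.42.0 was an alternative. Pathway genes named are the up to 3 with the highest principal cell level per role, plus those beyond 1 on the log2 scale with at least 20 UMIs and an interval without 0; likeness was ranked on log2(CPM + 5). The groups by SLC8A1, the split by AQP2 and the subsets by mitochondrial UMIs and intercalated cell markers were added after the data were seen. Genes and lists were chosen with earlier results of these data known. No length scaling was made, so a ratio of UMIs between genes was read only across classes and libraries. A gene of the pathway list that entered its counts is not reported here.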

Additional observations from a re-analysis of the deposited data

Results flagged for a closer look

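SCNN1G, SCNN1B and FXYD4 were flagged because they were higher in perfused principal cell-like nuclei and lower in perfused nuclei of some other classes. The counting intervals were without 0 on both sides. Only the 6 genes were screened for this pattern. Its share among all genes is not given here, so it cannot be read as particular to these genes. The difference between classes was not tested. SCNN1G and SCNN1B were also higher in connecting tubule-like nuclei (log2 ratios 0.44 and 0.50), and SCNN1G was at 10.7 and 21.8 CPM in immune-like nuclei (1.03, −0.12 to 2.42). For SCNN1G the log2 ratio was 0.23 in principal cell-like nuclei (711 and 921 UMIs). It was −3.04 in loop of Henle-like (33 and 6 UMIs), −2.22 in proximal tubule-like (40 and 7) and −1.87 in endothelial-like nuclei (20 and 4). SCNN1G was at 9.93 and 1.21 CPM in loop of Henle-like nuclei, against 963 and 1126 CPM in principal cell-like nuclei. The part of free RNA in such low levels was not tested. For SCNN1B the log2 ratio was 0.25 in principal cell-like nuclei (415 and 545 UMIs). It was −2.12 in proximal tubule-like (32 and 6), −1.77 in endothelial-like (28 and 6) and −2.28 in immune-like nuclei (18 and 13). For FXYD4 the log2 ratio was 0.36 in principal cell-like nuclei (570 and 810 UMIs). It was −2.03 in distal convoluted tubule-like (43 and 8 UMIs) and −2.06 in loop of Henle-like nuclei (92 and 33). In proximal tubule-like nuclei it was −1.60 (201 and 54) and in endothelial-like nuclei −1.24 (116 and 36). An unnamed cluster led by DPP10, SLIT3 and CDH18 had −2.31 (21 and 3).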

How the results depend on the processing

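The settings tried were other clustering resolutions, doublets kept, no mitochondrial limit, the 6 genes allowed among the variable genes, no integration, free RNA subtracted, thinning to 1000 UMIs, subsets of nuclei and other scalings. Over all of them 312 of the values stayed within their counting interval, 45 did not and 2 called ratios turned direction; the cause was not tested. The 2 are AVPR2 and SCNN1B in principal cell-like nuclei, whose intervals lay apart from 0 over all nuclei of the class. The turned values, 1.06 (−2.07 to 4.64) for AVPR2 and −0.05 (−0.58 to 0.48) for SCNN1B, had intervals that held 0. Ratios near 0 or from few UMIs also changed sign: AQP3 in principal cell-like nuclei was at 0.11 without intercalated markers, 0.21 at low mitochondrial UMIs, and 0.01 and 0.02 under TMM and DESeq2 scaling, and AVPR2 in connecting tubule-like nuclei at 0.22 after thinning. AVPR2 and AQP3 had the fewest UMIs of the 6 genes. No paired analysis was possible because each condition has 1 library and no result comes from a test.

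In principal cell-like nuclei without markers of other lineages (32 and 21 left), the log2 ratio was 0.77 for AQP2, 1.15 for AQP3, 1.06 for AVPR2 (turned, from 2 and 3 UMIs), −0.05 for SCNN1B (turned) and 0.52 for FXYD4. There the share with a UMI was 75.0% for AQP2 and 6.25% for AVPR2 (unperfused), and 61.9% for SCNN1G, 76.2% for SCNN1B and 81.0% for FXYD4 (perfused). In connecting tubule-like nuclei it gave at most 0.41 for AQP3, an upper bound from 4 unperfused and 0 perfused UMIs, and 0.04 for SCNN1G. Without nuclei with an intercalated cell marker, a subset chosen after seeing the data, the log2 ratio was −0.18 for AQP2, 0.49 for SCNN1G and 0.58 for FXYD4 in principal cell-like and 0.29 for SCNN1G and −0.87 for FXYD4 in connecting tubule-like nuclei.

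Thinning gave a log2 ratio of 0.04 for SCNN1B in principal cell-like and of 0.24 for SCNN1G in connecting tubule-like nuclei. Shares of principal cell-like nuclei with a UMI became 57.4% and 50.7% for AQP2, 14.2% and 11.3% for AQP3, 3.98% and 2.0% for AVPR2, 49.4% and 50.7% for SCNN1G, 44.3% and 46.0% for SCNN1B, and 47.7% and 56.0% for FXYD4 (unperfused, then perfused). The share of a gene's UMIs in these nuclei became 21.4% and 31.4% for AQP3, 24.6% and 40.2% for SCNN1G, and 35.6% and 53.6% for FXYD4. With doublets kept it was 45.6% and 57.0% for AQP2, 21.7% and 30.7% for SCNN1G, 23.9% and 33.5% for SCNN1B, and 36.4% and 53.3% for FXYD4, and with free RNA subtracted 44.3% and 66.0% for FXYD4.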

Other observations

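The levels of FXYD4 and AQP3 in immune-like nuclei, 74.8 and 71.5 CPM and 35.1 and 34.4 CPM in the unperfused and the perfused library, differed little between the libraries. A UMI of FXYD4 was found in 12.5% of the 312 unperfused and 15.1% of the 859 perfused nuclei of this class, at medians of 1433 and 1694 UMIs. Cycling-like nuclei, a class of 36 and 14 nuclei named from cell cycle genes, held 14 and 4 UMIs of SCNN1G (64.8 and 36.9 CPM) and 6 and 0 UMIs of AQP2.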
